A study of Mus musculus with 71 samples.

Results

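The comparison described here sets 3 libraries labelled MUT D11 p2 NFIAn against 3 labelled WT D11 p2 NFIAp, chosen by genotype, day and cell population from a series of 71 libraries. Each library holds mouse cells that were grown from embryonic stem cells in a dish towards the ventral spinal cord, taken on day 11 and sorted as p2. The growth medium was the same by the labels for all groups: bFGF at the start, then the GSK3 inhibitor CHIR99021, then retinoic acid with the Smoothened agonist SAG, and SAG alone from day 5 onwards. Cells were fixed, tagged with a Tn5 transposase made in the laboratory, stained inside the cell and sorted (CaTS-ATAC, a form of ATAC-seq that reads open chromatin in cells sorted by nuclear proteins). The mutated gene is not named. The endings NFIAn and NFIAp of the library titles are read here as cells sorted without and with the protein NFIA. No MUT group is NFIAp and no WT group of day 11 is NFIAn, so genotype and NFIA fraction cannot be told apart on day 11. The other groups used are p0-p1 and pMN of day 11, with the same genotypes and fractions, and the p2 libraries of days 5, 7 and 9. WT p2 of day 9 was sorted into both fractions, while the p2 cells of days 5 and 7 and all MUT p2 cells were NFIAn. It is not stated that replicates were grown as separate cultures, so p-values reflect only how far these libraries differ among themselves, and that spread may be technical.

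The p2 domain is a band of progenitors in the ventral neural tube that gives rise to V2 interneurons. It lies between the p0 and p1 domains above it and the pMN domain below it, which makes motor neurons and later oligodendrocyte precursors. Sonic hedgehog signalling, which SAG turns on, sets these domains up, and they are told apart by transcription factors such as NKX6.1 and OLIG2. As neurogenesis gives way to gliogenesis the progenitors of these domains begin to make NFIA, a transcription factor of the nuclear factor I family known from the switch to glial fates. Chromatin that opens when a factor is present and stays shut without it is a common readout of such a switch.

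Accessibility was given as normalised read counts in 155738 numbered intervals, of which 155734 passed a filter on low values and were tested. The intervals carry no position and no gene name, so they are described by number. The 6 libraries held 23399807, 24375871 and 24608826 reads in MUT and 30763394, 25425271 and 31315134 in WT (replicates 1, 2 and 3), so every WT library was deeper than every MUT library. Across all tested intervals, Pearson's r of the log2 values was 0.970 to 0.983 within MUT, 0.979 to 0.984 within WT and 0.912 to 0.932 between the groups. The p2 label was checked with intervals that set p2 apart from pMN or from p0-p1 in WT NFIAn cells of day 9. The median log2 value of those higher in p2 minus that of those lower in p2 was positive in all 6 p2 libraries. The medians come from different intervals, so the sign alone does not place a library. Against pMN it was 0.63 to 0.98 in MUT and 0.29 to 0.53 in WT, and -1.10 to -0.79 in the 6 pMN libraries. It was 0.36 to 0.89 in the 6 p0-p1 libraries, so this part sets p2 apart from pMN alone. Against p0-p1 it was 1.54 to 2.21 in MUT p2 and 1.55 to 1.81 in WT p2, and -1.40 to -0.07 in the 6 p0-p1 libraries. The 6 pMN libraries had 0.892 to 1.115 here, below every p2 library. In 2 other p2 groups used below a library is in doubt. Earlier results of these data placed the NFIAp library labelled replicate 2 of WT p2 on day 9 with pMN. WT D7 p2 replicate 2 is in doubt for how its signal is spread. No test of either is given here.

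MUT p2 cells were far less accessible than WT p2 cells in a large set of intervals, and modestly more accessible in a smaller set. By limma, 12228 intervals were lower in MUT and 3958 were higher (Benjamini-Hochberg adjusted p under 0.05 and a log2 difference of at least 1, where the difference is on log2(value + 5)). These are 7.85% and 2.54% of the intervals tested. The size threshold, not the p-value, set these counts, since 12232 intervals lay at or beyond a log2 difference of -1 and 3958 at or beyond 1. With library totals made equal instead of the deposited scaling, 10447 were lower and 7914 higher, so the higher share of the calls went from 24.5% to 43.1%, while the median difference of all intervals went from 0.04 to 0.19. The number of higher intervals was 6006 without MUT replicate 3. With every library thinned to the same number of reads, 12276 were lower and 4566 higher, so the lower count was as large at equal depth.

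The lower and higher intervals differed in size of change. The lower ones had a median log2 difference of -1.68 (interquartile range -2.30 to -1.29), and 4337 of them were at least 4-fold lower on that scale, 1202 at least 8-fold, 235 at least 16-fold and 28 at least 32-fold. The higher ones had a median of 1.13 (interquartile range 1.06 to 1.26), so most lay just past the threshold, and 10 of them were at least 4-fold higher. In the lower set the median interval was at 72.9 normalised reads in WT, against 14.3 in MUT, and 4820 intervals (39.4%) had a MUT mean under 10. In the higher set the median interval had 17.9 in WT and 47.5 in MUT. The values of the 3 MUT libraries lay wholly below those of the 3 WT libraries in 12117 of the lower intervals (99.1%), against 21.6% of all tested. They lay wholly above them in 3873 of the higher ones (97.9%), against 20.2% of all tested. These shares follow in part from the choice of the intervals and are given as a description.

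**Figure D1:**
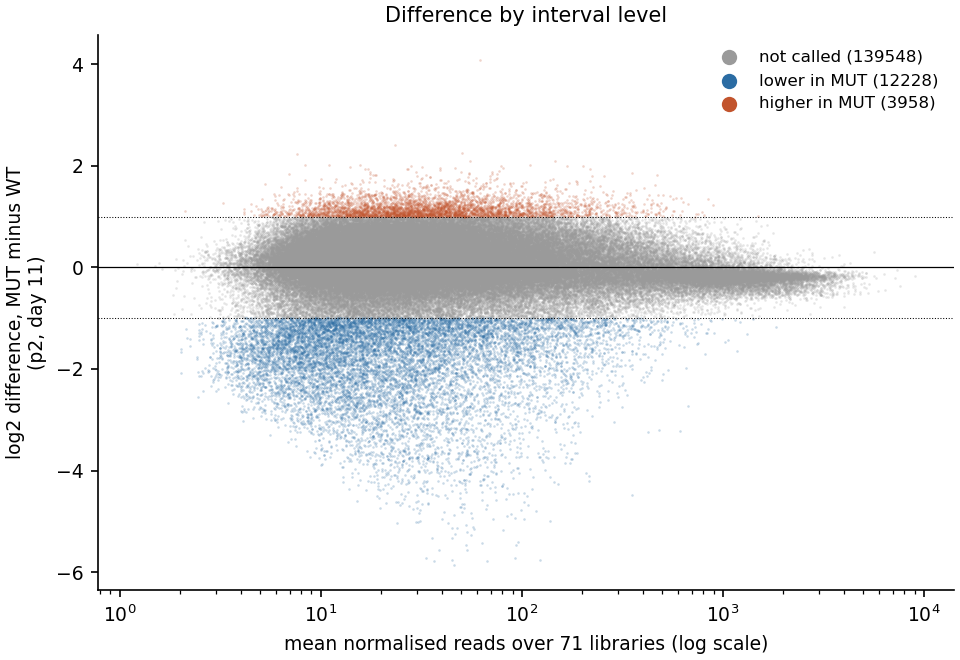
Each point is an interval, with the mean normalised reads over all 71 libraries on the x axis (log scale) and the log2 difference between MUT and WT in p2 on day 11 on the y axis. Dotted lines mark a log2 difference of -1 and 1. The 12228 lower intervals reach down to -5.86, while all but 10 of the 3958 higher ones lie under 2.

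The share of lower intervals was highest among intervals with a low mean, though that mean is taken over all libraries and is itself low where signal is mostly in WT of day 11. Of the 18851 intervals with a mean under 10 normalised reads over all libraries, 16.4% were lower in MUT p2, against 8.05% of those from 10 to 30, 7.41% from 30 to 100, 6.14% from 100 to 300 and 1.21% at 300 or more. The higher intervals peaked at a middle level, with 3.65% of the intervals from 30 to 100 and 0.575% of those at 300 or more. The most accessible intervals as a whole sat slightly below the rest, with a median log2 difference of -0.17 at 300 or more against 0.14 from 10 to 30. As a share of all signal in the intervals, the lower set held 8.21%, 7.19% and 6.76% in WT replicates 1 to 3 and 2.40%, 2.21% and 2.09% in MUT. The higher set held 0.442%, 0.462% and 0.422% in WT and 1.33%, 1.25% and 1.17% in MUT.

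The 8 named lower intervals were among the stronger intervals in WT and near the floor in MUT. In Interval_145071 the WT libraries had 510, 424 and 436 normalised reads and the MUT libraries 1.01, 2.86 and 5.50. Interval_118950 had 934, 945 and 810 in WT and 12.1, 10.5 and 11.9 in MUT. Interval_122006 had 704, 548 and 512 in WT and 3.02, 5.73 and 9.17 in MUT. In none of these did the highest MUT library come near the lowest WT library. Interval_123885 had 374, 284 and 370 in WT and 1.01, 1.91 and 0.917 in MUT, which is 4 recovered reads in all 3 MUT libraries together. Interval_37708 had 458, 420 and 349 in WT and 1.01, 1.91 and 5.50 in MUT. Interval_53741 had 874, 745 and 695 in WT and 13.1, 11.5 and 5.50 in MUT. It and Interval_118950 kept the most signal of the 8 in MUT. Interval_56483 had 485, 293 and 296 in WT and 2.01, 0 and 3.67 in MUT, and Interval_131861 had 576, 455 and 386 in WT and 3.02, 6.68 and 5.50 in MUT.

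On the log2(value + 5) scale the 8 differences ran from -5.86 (SE 0.30) for Interval_145071 to -5.57 (SE 0.31) for Interval_131861. The limma adjusted p was 5.16e-24 for the former and 7.35e-23 for the latter. That scale understates the change where MUT has only a few reads. All 8 were also lower in MUT in the other populations of day 11, from -4.68 for Interval_37708 to -3.71 for Interval_56483 in p0-p1, and from -6.04 for Interval_118950 to -4.70 for Interval_56483 in pMN.

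None of these 8 was called lower in MUT on day 9, where the differences between NFIAn cells ran from -0.71 for Interval_123885 (limma adjusted p = 0.342) to 0.41 for Interval_131861 (limma adjusted p = 0.625). In WT their signal was low before day 11. Interval_145071 had 1.70 ± 0.88 normalised reads (SD, n = 2) in WT p2 on day 5, 2.22 ± 0.56 (SD, n = 3) in the NFIAn fraction of day 9, 6.36 ± 4.33 (SD, n = 3) in its NFIAp fraction and 457 ± 46.7 (SD, n = 3) on day 11. Interval_123885 had 4.24 ± 2.97, 17.7 ± 14.7 and 343 ± 50.8 (SD, n = 3 each) in WT NFIAn of day 9, WT NFIAp of day 9 and WT of day 11. Both had signal well above the floor in WT on day 11 and not in any MUT group. Interval_118950 differed from them, since it was at 69.7 ± 4.28 in WT and 60.5 ± 18.1 in MUT on day 7, then at 13.1 ± 1.76 (SD, n = 3 each) in WT NFIAn and 13.6 ± 1.79 (SD, n = 2) in MUT on day 9.

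**Figure D2:**
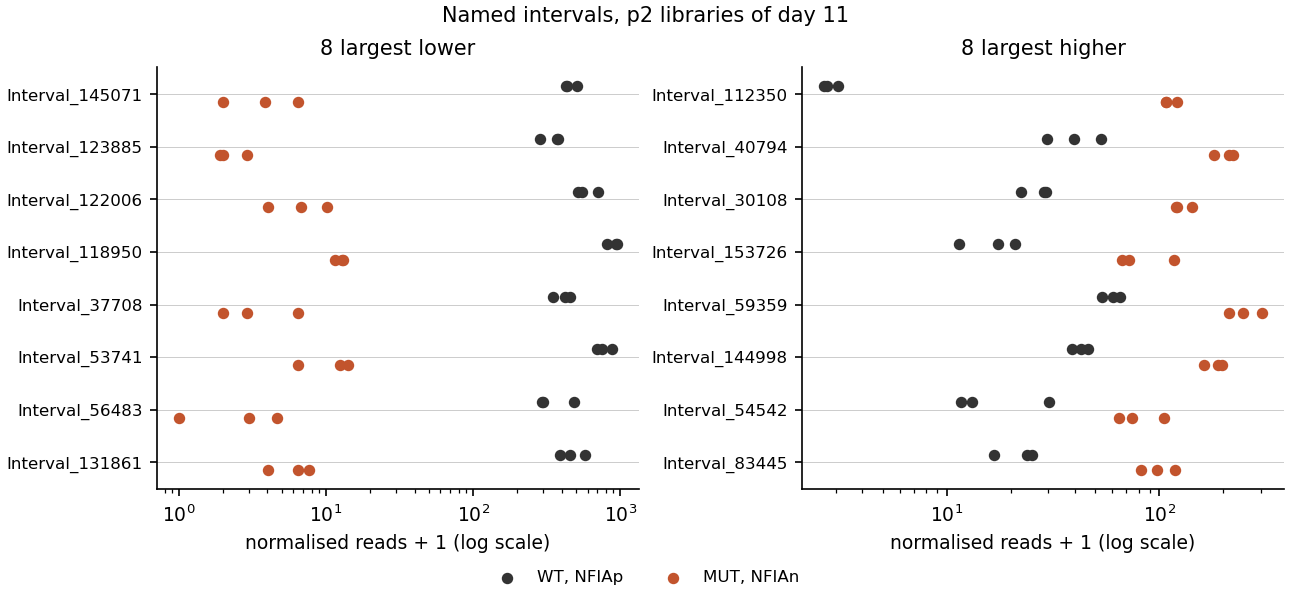
Normalised reads plus 1 (x axis, log scale) in each of the 6 p2 libraries of day 11 for the 8 largest lower intervals (left) and the 8 largest higher intervals (right), 1 row per interval. Every MUT point lies below every WT point on the left and above it on the right. The gap is wider on the left, and on the right it is widest for Interval_112350.

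The 8 named higher intervals fell into an extreme case and 7 of moderate size. Interval_112350 had 120, 106 and 106 in MUT and 1.73, 2.09 and 1.65 in WT (normalised reads), a log2 difference of 4.08 (SE 0.47, limma adjusted p = 1.43e-10). It was the only interval past 8-fold on the higher side. The MUT value of Interval_112350 hardly moved with the day, at 112 ± 26.5 on day 5, 131 ± 20.7 on day 7 (SD, n = 3 each) and 108 ± 0.298 (SD, n = 2) on day 9, and WT stayed under 11 in every p2 library. Interval_40794 had 221, 211 and 181 in MUT and 28.6, 38.6 and 51.9 in WT, a log2 difference of 2.26 (SE 0.33). It had 26.9 ± 17.0 (SD, n = 2) in MUT and 14.3 ± 2.22 (SD, n = 3) in WT NFIAn on day 9, so its signal in MUT was higher on day 11. It lies in a run of interval numbers that is shifted as a whole, described below.

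Interval_30108 had 142, 120 and 118 in MUT and 27.8, 28.2 and 21.4 in WT. Interval_153726 had 116, 70.7 and 66.1 in MUT and 19.9, 10.4 and 16.5 in WT. Like Interval_112350, these 2 differed between the genotypes on all days, and their day 11 difference was not a late one. Interval_59359 had 303, 247 and 212 in MUT and 52.9, 59.5 and 64.3 in WT. Interval_144998 had 196, 188 and 161 in MUT and 45.1, 41.8 and 37.9 in WT. These 2 had more signal in WT on day 9 than on day 11, with 104 ± 25.9 for Interval_59359 and 89.3 ± 10.4 (SD, n = 3 each) for Interval_144998 in NFIAn cells, but less on day 5, with 22.0 ± 5.03 and 33.5 ± 6.32 (SD, n = 2 each). Interval_54542 had 73.4, 64.0 and 104 in MUT and 12.1, 29.2 and 10.7 in WT, and Interval_83445 had 118, 81.2 and 96.3 in MUT and 24.3, 23.0 and 15.7 in WT. The 7 log2 differences after Interval_112350 ran from 2.26 to 2.00, and all 7 were also positive in p0-p1 and in pMN.

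Both sets were followed through the p2 libraries of all days. In WT NFIAn cells both medians were higher on day 9 than on day 5. From there they moved in opposite directions to WT of day 11, whose values chose the sets. On day 9 the NFIAp means already lay that way, though the libraries of the fractions overlapped for the lower set. The median log2(value + 5) of the 12228 lower intervals was 3.74 ± 0.04 (SD, n = 2) in WT on day 5, 3.79 ± 0.13 on day 7, 4.03 ± 0.06 in the NFIAn fraction of day 9 and 6.27 ± 0.19 (SD, n = 3 each) on day 11. In MUT it was 3.80 ± 0.03, 3.69 ± 0.10, 3.85 ± 0.01 (n = 2 on day 9) and 4.28 ± 0.05 (SD, n = 3 otherwise). MUT on day 11 was thus slightly above the NFIAn cells of both genotypes on day 9 and far below WT of day 11, whose values helped to choose the set. It lay within the range of the WT NFIAp libraries of day 9, from 3.94 to 4.78, where the lowest is the library in doubt. For the 3958 higher intervals WT went from 4.59 ± 0.06 (SD, n = 2) on day 5 to 5.32 ± 0.05 in NFIAn of day 9, 5.01 ± 0.07 in NFIAp of day 9 and 4.50 ± 0.07 (SD, n = 3 each) on day 11. MUT went from 4.81 ± 0.07 (SD, n = 3) on day 5 to 5.86 ± 0.10 (SD, n = 2) on day 9 and 5.69 ± 0.14 (SD, n = 3) on day 11. Over all tested intervals the same medians stayed between 4.97 and 5.20 in all 9 groups.

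**Figure D3:**
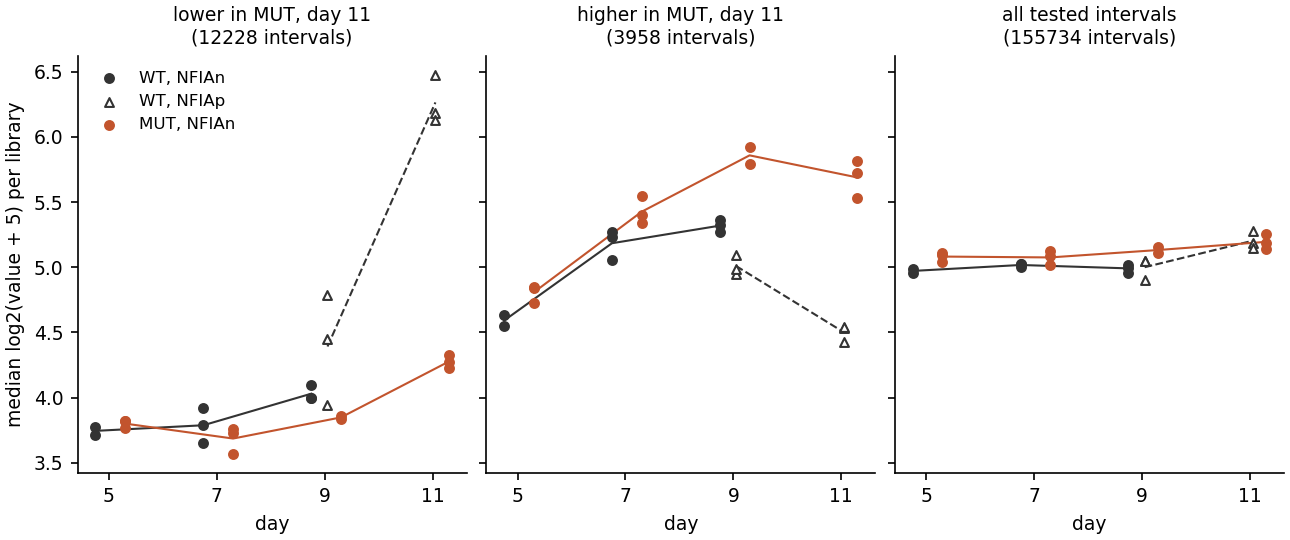
Median log2(value + 5) over the lower intervals (left), the higher intervals (middle) and all tested intervals (right) in each p2 library, against the day. Points are libraries, lines join group means, and points of a day are set apart sideways. WT of day 11 stands near 6.27 in the left panel, while MUT of day 11 stays at 4.28. In the middle panel WT stands at 4.50 and MUT at 5.69 on day 11, after 5.32 in WT NFIAn and 5.86 in MUT on day 9.

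The state on day 9 differed between the sets. In WT NFIAn cells of day 9, 46.4% of the lower intervals had under 10 normalised reads, against 22.5% of all tested, and 22.8% had 30 or more, against 46.8% of all. The 5674 lower intervals that began under 10 had a WT median of 5.04 on day 9 and 36.7 on day 11, and a MUT median of 4.24 and 6.06. The 2793 that began at 30 or more had a median of 62.8 and 293 in WT and of 53.6 and 82.9 in MUT, with a smaller gap between the days in MUT than in WT. Of the higher intervals 56.3% had 30 or more in WT NFIAn of day 9, and these had a WT median of 64.0 on day 9 and 29.0 on day 11, against 96.9 and 73.6 in MUT. The sets were chosen by their day 11 difference, and the day 9 levels took no direct part in that. The spread behind the calls was taken over all groups, however, and an interval could pass the filter through WT of day 11 alone. Low day 9 values in the lower set therefore follow in part from the choice, to an extent that was not tested.

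Intervals that had changed in WT p2 earlier, between day 5 and NFIAn of day 9, were on day 11 no lower in MUT than in WT, taken as sets. The 22334 that were higher on day 9 than on day 5 had a median log2(value + 5) of 5.93 ± 0.14 in WT and 6.16 ± 0.21 (SD, n = 3 each) on day 11 in MUT. The 20668 that were lower had medians of 4.01 ± 0.05 and 4.15 ± 0.07 (SD, n = 3 each). In the former set the libraries of the genotypes overlapped, from 5.77 to 6.02 in WT and from 5.93 to 6.35 in MUT. In the latter they did not, with 3.95 to 4.05 in WT and 4.09 to 4.23 in MUT.

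Day 9 lets genotype be compared within the NFIAn label and fraction within WT, since WT p2 then has both fractions. MUT has no NFIAp libraries. Whether the NFIAn label takes the same part of the p2 cells in both genotypes was not tested. MUT against WT within NFIAn called 889 intervals higher (0.571%) and 396 lower (0.254%). With quantile normalization 362 were higher and 594 lower, so the balance on day 9 depended on the scaling, and on a library as given next. The total of 1285 was 701 without MUT D9 replicate 1, 246 (95 higher, 151 lower) without MUT D9 replicate 2 and 427 without WT D9 NFIAn replicate 1. NFIAp against NFIAn within WT called 1781 higher (1.14%) and 4058 lower (2.61%). Without the NFIAp library in doubt, labelled replicate 2, it called 5664 and 4716. A fit of these 2 groups alone called 60 higher and 1719 lower, so the list of 1781 rests on the fit over all groups. Both comparisons use the same WT NFIAn libraries, so they are set side by side and not related to each other.

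The day 11 lower intervals had a median difference of -0.10 between MUT and WT NFIAn cells on day 9. There 338 of them (2.76%) were called lower, against 0.254% of all tested, and 13 (0.106%) higher, against 0.571%. In the fraction comparison their median was 0.36 with 743 (6.08%) called higher in NFIAp, against 1.14% of all tested. It was 0.52 with 2272 (18.6%) when the NFIAp library in doubt was left out, against 3.64% of all tested in that setting. The 3 NFIAp libraries of day 9 had medians of 4.78, 3.94 and 4.45 over the lower set (replicates 1 to 3), against 4.00 to 4.10 in NFIAn, and the low value is that of the library in doubt. The day 11 higher intervals had a median of 0.50 between MUT and WT on day 9. There 227 (5.74%) were called higher, against 0.571% of all tested, and none lower. Between the fractions their median was -0.23, with 422 (10.7%) called lower in NFIAp, against 2.61% of all tested.

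Read the other way, most intervals that were already lower in MUT on day 9 were lower on day 11. Of those 396 intervals, 338 (85.4%) were called lower on day 11, against 7.85% of all tested, with a median log2 difference of -2.01. The day 11 levels took no direct part in the day 9 calls, but day 11 libraries enter the shared spread and the filter. How far that bears on the shares given here was not tested. The median log2(value + 5) of the 396 intervals was 7.54, 7.56 and 7.50 in WT of day 11 and 5.37, 5.33 and 5.10 in MUT. Of the 889 higher on day 9, 227 (25.5%) were called higher on day 11, against 2.54% of all tested, with a median of 0.66. Without MUT D9 replicate 2 the day 9 lists held 95 higher and 151 lower intervals. Of the 1781 intervals higher in NFIAp on day 9, 743 (41.7%) were lower in MUT on day 11, again against 7.85%, with a median of -0.64 and a wide interquartile range of -2.10 to -0.02. Their medians per library were 5.83, 5.61 and 6.03 in WT and 4.65, 4.65 and 5.10 in MUT. When the day 9 list was made without the library in doubt, 2272 of 5664 (40.1%) were lower. Of the 4058 lower in NFIAp on day 9, 422 (10.4%) were higher in MUT on day 11, against 2.54% of all tested, with a median of 0.51.

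By the rule for intervals called on both days, Interval_89987 and Interval_24771 were the largest lower ones. Interval_89987 had 683, 651 and 614 in the WT libraries and 13.1, 9.55 and 9.17 in the MUT libraries of day 11 (normalised reads), and 63.4 ± 4.58 in WT NFIAn (SD, n = 3) and 6.14 ± 3.42 in MUT (SD, n = 2) on day 9. Its log2 difference was -2.65 on day 9 (limma adjusted p = 1.54e-06) and -5.40 on day 11 (limma adjusted p = 3.82e-22). It thus had signal in WT cells sorted without NFIA, and 117 ± 55.4 (SD, n = 3) in WT NFIAp cells of the same day. Interval_24771 had 479, 526 and 494 in WT and 12.1, 12.4 and 12.8 in MUT on day 11, with a log2 difference of -1.66 on day 9 (limma adjusted p = 0.017) and -4.85 on day 11. The largest higher ones were Interval_112350 and Interval_30108, with log2 differences of 3.53 and 1.76 on day 9.

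The change in the difference between days 9 and 11 was tested as an interaction, which rests on the same day 11 libraries. It was more negative on day 11 in 9749 intervals (6.26%), of which 8598 were lower in MUT on day 11, 70.3% of that set. It was more positive in 433 (0.278%), of which 234 were higher on day 11, 5.91% of that set. On days 5 and 7, MUT p2 and WT p2 differed in few intervals, with 87 higher (0.0559%) and 22 lower (0.0141%) on day 5 and 259 higher (0.166%) and 84 lower (0.0539%) on day 7. The day 11 lower intervals had medians of 0.02 and -0.03 on those days, and 0.04 on day 7 without WT D7 p2 replicate 2. The higher ones had medians of 0.18 and 0.23, and 0.18 on day 7 without that library.

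**Figure D4:**
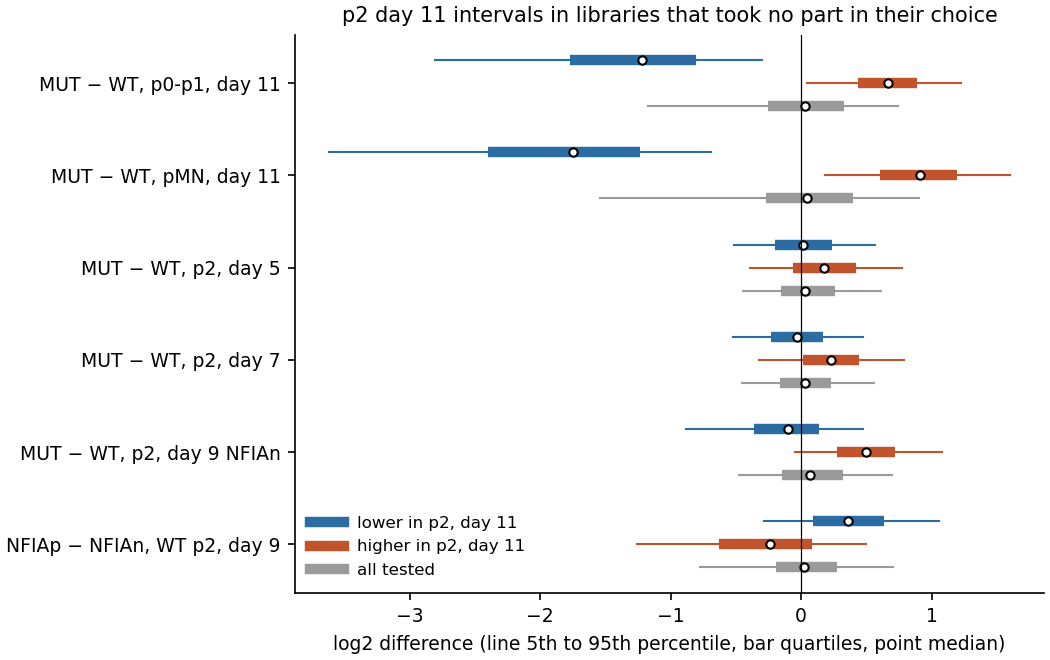
Log2 differences of the lower, the higher and all tested intervals in 6 comparisons of libraries other than the p2 libraries of day 11. The line runs from the 5th to the 95th percentile over intervals, the bar spans the quartiles and the point is the median. In p0-p1 and pMN of day 11 the lower set lies at medians of -1.22 and -1.75, while on days 5, 7 and 9 its medians between the genotypes are 0.02, -0.03 and -0.10.

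The difference seen in p2 was largely present in the libraries of the other populations of day 11. Whether populations that share a replicate number were sorted from the same culture is not stated, so these libraries may not be independent of the p2 ones. Of the 12228 lower intervals, 7726 (63.2%) were called lower in p0-p1, where 6.57% of all tested were, and 10518 (86.0%) in pMN, where 8.46% were. Their medians were -1.22 in p0-p1 and -1.75 in pMN, and none was called higher in either. With library totals made equal, the higher share of calls went from 15.2% to 26.7% in p0-p1 and from 28.2% to 44.7% in pMN. As a share of the lists of the other populations, those shared intervals were 75.6% of the p0-p1 list and 79.8% of the pMN list. Among the 4337 that were at least 4-fold lower in p2, 91.8% were called lower in p0-p1 and 99.7% in pMN.

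The sharing of higher intervals was counted in the same way, and its difference from that of lower ones was not tested. Of the 3958, 635 (16.0%) were called higher in p0-p1, where 1.18% of all tested were, and 1655 (41.8%) in pMN, where 3.32% were. These were 34.7% of the p0-p1 list and 32.0% of the pMN list. Their medians were 0.66 and 0.91, so most had the same sign and fell short of the threshold. In all, 7321 lower intervals (59.9%) and 374 higher ones (9.45%) were called in all 3 populations, and 1305 (10.7%) and 2042 (51.6%) in p2 alone. The intervals called in p2 alone had medians of -0.57 in p0-p1 and -0.76 in pMN on the lower side, and 0.55 and 0.66 on the higher side. A call in p2 alone therefore did not mean that the other populations were at 0. Across all tested intervals, which are not independent replicates, the p2 difference had a Pearson's r of 0.796 with that of p0-p1 and 0.879 with that of pMN.

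**Figure D5:**
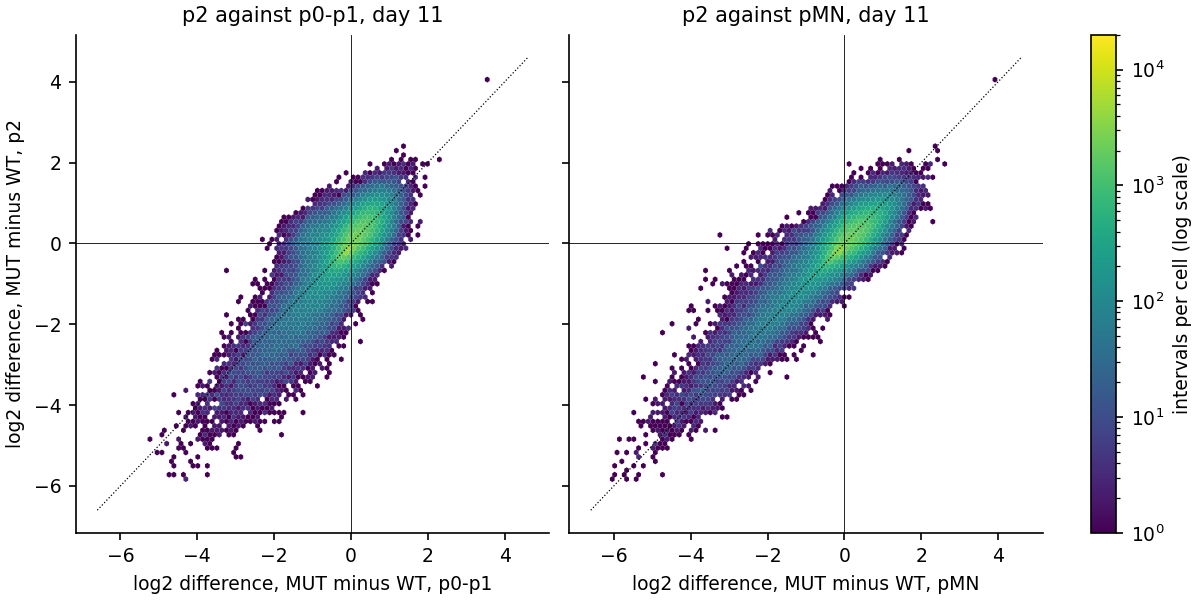
Log2 difference between MUT and WT in p2 (y axis) against that in p0-p1 (left) and pMN (right) on day 11, with the colour giving the number of intervals per hexagon on a log scale and the dotted line marking equal values. Strongly lower intervals lie near the line in pMN and below it in p0-p1. The lower set has a median of -1.22 in p0-p1 against -1.68 in p2. It was chosen by its p2 values, so this offset follows in part from the choice.

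Whether p2 differed from the other populations was tested as an interaction, on the same p2 libraries. Against p0-p1 the difference was more negative in p2 in 537 intervals (0.345%) and more positive in 315 (0.202%). Of the 537, 495 were lower in MUT p2, where 7.85% of all tested intervals were. Over the 537 the medians were -2.48 in p2 and -0.76 in p0-p1. Against pMN the difference was more negative in p2 in 6 intervals (0.00385%) and more positive in 110 (0.0706%). Of the 110, 93 were lower in MUT pMN, where 8.46% of all tested were, with medians of -2.16 in pMN and -0.29 in p2. The intervals were picked by these contrasts, so the 495, the 93 and the medians follow in part from the choice. The counts of both contrasts moved with the libraries. The 852 against p0-p1 became 421, 353 and 1291 without MUT p0-p1 replicates 2, 3 and 1, 457 and 520 without MUT p2 replicates 2 and 3, 456 and 2387 without WT p0-p1 replicates 1 and 3, and 189 without WT p2 replicate 1. The balance turned to 1831 more positive and 556 more negative without WT p0-p1 replicate 3 and to 760 and 531 without MUT p0-p1 replicate 1, and 30 were more positive without WT p0-p1 replicate 1. No direction is therefore given for the contrast with p0-p1. The 116 against pMN became 60 and 55 without MUT p2 replicates 1 and 2, 52 and 41 without MUT pMN replicates 2 and 3, 49 and 55 without WT p2 replicates 2 and 3, and 18 and 201 without WT pMN replicates 1 and 3.

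In the main fit only Interval_130304 was called more negative in p2 than in both other populations, and none was more positive than in both. It had 65.9, 66.8 and 48.6 normalised reads in WT p2 and 3.02, 0.955 and 0.917 in MUT p2. In WT it had 17.1 ± 5.66 in p0-p1 and 16.1 ± 5.91 (SD, n = 3 each) in pMN, and in MUT 2.04 ± 1.28 and 2.35 ± 1.21 (SD, n = 3 each). The log2 difference was -3.31 in p2, -1.64 in p0-p1 and -1.50 in pMN, with limma adjusted p of 0.0166 and 0.021 for the contrasts with p0-p1 and pMN. Its mean over all libraries was 5.61 normalised reads, below the median interval, so the rule for named intervals did not pick it. It was chosen after its values were seen. With quantile normalization 71 intervals were more positive in p2 than in pMN and 0 more negative. The call of Interval_130304 against pMN was thus lost under that setting.

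Some intervals at or above the median level with large interactions were also chosen after their values were seen. The largest contrast with p0-p1 at that level was -2.84 (limma adjusted p = 0.000243), for Interval_135711, which lies in a shifted stretch described below. It had 464, 279 and 251 normalised reads in WT p2 and 7.04, 4.77 and 11.0 in MUT p2, and 49.7 ± 17.9 in WT p0-p1 and 9.42 ± 1.94 (SD, n = 3 each) in MUT p0-p1. Here the MUT levels of the populations were close and the WT levels were not. Interval_62928 had 449, 424 and 317 normalised reads in WT p2 and 37.2, 33.4 and 32.1 in MUT p2, but 285 ± 14.3 in WT p0-p1 and 178 ± 28.6 (SD, n = 3 each) in MUT p0-p1. Its contrast between p2 and p0-p1 was -2.67 (limma adjusted p = 5.19e-06), so the MUT p0-p1 libraries had more signal here than the MUT p2 libraries. Interval_125613 went the other way, with 23.4 ± 4.27 in WT and 59.7 ± 10.9 in MUT in p2, and 196 ± 116 in WT and 90.0 ± 32.5 (SD, n = 3 each) in MUT in p0-p1. Its contrast was 2.17 (limma adjusted p = 0.00655). The largest contrast with pMN at that level was 2.96 (limma adjusted p = 3.79e-05), for Interval_111937, which was not called in p2. It had 156, 129 and 84.0 in WT p2 and 80.5, 103 and 43.1 in MUT p2, which overlap, and 257 ± 102 in WT pMN and 15.0 ± 4.92 (SD, n = 3 each) in MUT pMN. Next, Interval_99054 had 127, 62.6 and 63.4 in WT p2 and 21.1, 10.5 and 9.17 in MUT p2, and 587 ± 264 in WT pMN and 18.7 ± 14.2 (SD, n = 3 each) in MUT pMN. It was lower in MUT in both, by -2.24 in p2 and -4.71 in pMN, and WT pMN had the highest level.

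A few intervals differed between the genotypes in the same direction on all 4 days, 11 lower and 9 higher, a count made after the values were seen and the same without WT D7 p2 replicate 2. Of the 11 lower ones, 5 are the consecutive Interval_143053 to Interval_143057. Together these 5 held 1 recovered read in the 11 MUT p2 libraries of all days and between 168 and 519 reads in each of the 14 WT p2 libraries, where the 519 are those of WT D7 p2 replicate 2. On day 11 Interval_143054 had 61.6, 52.2 and 61.8 normalised reads in WT p2 and 0 in each MUT library. Against a floor of 3 reads over the 3 MUT libraries, it was at least 61.0-fold lower. The other 4 were at least 17.5-fold to 37.6-fold lower. In all, 22 lower intervals had 0 reads in all 3 MUT libraries. Of the 9 higher ones, 3 are Interval_112333, Interval_112341 and Interval_112350, which lie close together in number. These intervals already differed before day 11 and are a small part of the 16186 called.

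Called intervals also clustered a little along the numbering. The next number was called lower after 11.9% of the lower intervals, against 7.85% of all tested, and called higher after 7.07% of the higher ones, against 2.54%. The longest run of lower intervals was 8, from 135487 to 135494, and that of higher ones was 7, from 112332 to 112338. In 3 long stretches of numbers the median difference between the genotypes was shifted on all days, although each holds intervals called in either direction. The stretches were chosen by the day 5 and 7 differences, so their shift on those days follows from the choice. The run of 8 lower intervals lies in the last of them by number. The stretch from 18861 to 29241 had a median day 11 difference of -0.11 with 8.97% of its intervals lower, and that from 134756 to 143563 had -0.18 with 10.3% lower. The stretch from 39851 to 41261 had 0.25 with 9.07% higher. Outside them 7.62% were lower and 2.71% higher. Among the named intervals, Interval_40794, Interval_24771 and the run from Interval_143053 lie in such stretches, and the part of the shift in their values was not tested.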

How the data were processed

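The deposited table holds signal values: read counts in intervals that the authors divided by a size factor for each library. Multiplying by that factor gave back whole reads for 100% of values (tolerance 0.01). The genome build was mm10 per the submitters' processing notes, and for the aligner, peak caller and counting tool the sources used here give no name. Reads per library ranged from 20034731 to 31315134. At the median level of 31.8 normalised reads, counting error alone is 17.7%, and limits from counts cover counting error only.

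Samples were grouped by their titles and population labels. After a log2(value + 5) transform, limma 3.58.1 (R 4.3.3) fitted the means of 26 groups over all 71 libraries, with a mean-variance trend and 45 residual degrees of freedom. The filter kept intervals that reach 10 normalised reads in 2 or more libraries. P-values were adjusted over all intervals tested, and the fit was tested on simulated data. Named intervals are the 8 lower and 8 higher with the largest difference among called intervals at or above the median level whose libraries do not overlap, and the 2 lower and 2 higher with the largest difference among those called on days 9 and 11. The rule for intervals that differ from both other populations picked none. Stretches were found from a running median of the day 5 and 7 differences. The members and the tests were chosen with earlier results of these data known.

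Alternatives were pseudocounts of 1 and 20, no filter, a mean of at least 30, quantile normalization, equal totals, TMM scaling, quality weights for libraries, a fit without the other groups, edgeR 4.0.16 on the recovered reads, a replicate block, leaving out the shifted stretches and leaving out each library. Thinning to equal depth was added after seeing the data, as was leaving out WT D7 p2 replicate 2. Figures were drawn with matplotlib 3.10.9.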

Additional observations from a re-analysis of the deposited data

Results flagged for a closer look

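The difference between MUT and WT in p2 was not the same on days 9 and 11. By limma's interaction test it was more negative on day 11 in 9749 intervals and more positive in 433. On day 9 both groups are NFIAn and on day 11 WT is NFIAp, so in this contrast the day cannot be told apart from the fraction.

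On day 11 the difference also varied among populations. Against p0-p1 it was more negative in p2 in 537 intervals and more positive in 315, and against pMN it was more negative in 6 and more positive in 110. The 852 against p0-p1 ran from 189, without WT p2 replicate 1, to 2387, without WT p0-p1 replicate 3, and also moved by over 1.5 times without any MUT p0-p1 replicate, MUT p2 replicates 2 and 3, or WT p0-p1 replicate 1. Without WT p0-p1 replicate 3, 1831 were more positive and 556 more negative, so the balance turned. The 116 against pMN ran from 18, without WT pMN replicate 1, to 201, without WT pMN replicate 3, and also moved that far without MUT p2 replicates 1 and 2, MUT pMN replicates 2 and 3, or WT p2 replicates 2 and 3. Interval_130304 was the only interval more negative in p2 than in both, with a contrast of -1.81 against pMN (limma adjusted p = 0.021). With quantile normalization 0 intervals were more negative in p2 than in pMN, so this call was lost. No group of the comparison has more than 3 libraries, so none was tested for outlying libraries.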

How the results depend on the processing

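The 18 intervals named by rule kept their direction and stayed called in all 358 alternative values, as their choice by large differences made likely. The intervals named only after their values were seen, such as those with large contrasts between populations, were not among them. The 16186 intervals of the main comparison became 8569 with a pseudocount of 20 (654 higher, 7915 lower) and 6822 with a mean of at least 30 (2213 higher, 4609 lower), where fewer intervals are tested. Higher intervals numbered 8322 with a pseudocount of 1, 7914 with equal totals and 8733 by edgeR. Leaving out each library gave 16106 to 17971 in all, 3563 to 6006 higher and 11218 to 13128 lower. With a pseudocount of 20 and with a mean of at least 30, p0-p1 gave 5451 and 4554 intervals in place of 12058, and pMN 9857 and 8161 in place of 18343. The 1285 of day 9 became 342 with a pseudocount of 20, and 246 to 1131 without a library. The 5839 of the fractions became 1941 with a pseudocount of 20, 3243 with a mean of at least 30, 1779 in a fit of only the groups compared (60 higher, 1719 lower), 9869 by edgeR, and 4434 to 10380 without a library. The 10182 of the contrast between days became 4164 with a mean of at least 30, and 8213 to 10268 without a library. The 852 against p0-p1 became 182 and 1617 with pseudocounts of 1 and 20, 255 with a mean of at least 30, 146 in a fit of only the groups compared, 6612 with quality weights, 358 by edgeR, and 189 to 2387 without a library. The 116 against pMN became 52, 353, 34, 31, 2072 and 44 under the same settings, 71 with quantile normalization, and 18 to 201 without a library. The cause of these changes was not tested beyond the smaller number of intervals under the filter. Libraries that share a number had residual correlations of 0.269, 0.065 and 0.4 between MUT and WT p2 of day 11, and each correlated best with its own number. The main fit did not take the numbers as pairs, and whether they are pairs was not tested. The replicate block gave 16187 intervals over all libraries and 16190 in a fit of only the 6 libraries.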
